A study of Mus musculus with 6 samples.

Results

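Transcript levels of 45 genes that build fatty acids, triglycerides and phospholipids were compared between Lkb1 wild-type and Lkb1 mutant mouse lung tumour cells. The genes were chosen by name as members of these synthesis routes, and all 45 were found among the 55487 genes of the deposited table. The study compared mouse lung adenocarcinomas of the KP model, which both groups share. In the sgNeo group a control guide was used and Lkb1 was wild type, and in the sgLkb1 group Lkb1, the kinase gene whose mouse symbol is Stk11, was mutated. GFP-positive CD45-negative cells were sorted 11 weeks after tumour initiation, and RNA was sequenced in bulk from 3 libraries of each group. The labels do not say whether the 3 libraries of a group came from separate animals, so the spread that p-values measure here may be technical. Strain, sex, age, the way Cre and guides were delivered and the number of tumours pooled per library were not stated in the labels.

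Fatty acid synthesis starts from citrate, which ATP citrate lyase splits to acetyl-CoA. Acetyl-CoA carboxylases turn acetyl-CoA into malonyl-CoA, fatty acid synthase builds palmitate from it, and elongases and desaturases lengthen and desaturate the product. Acyl chains are then esterified to glycerol phosphate, and the lipids divide into triglyceride, for storage, and phospholipid, for membranes and, in alveolar type 2 cells, for surfactant. SREBP-1c, from Srebf1, and ChREBP, from Mlxipl, are transcription factors that drive many of these genes, and LKB1 activates AMPK, a kinase that phosphorylates acetyl-CoA carboxylases.

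Total counts were 26007503 to 28986526 per sgNeo library and 29613678 to 41729299 per sgLkb1 library. Stk11 fell from 61.5 ± 25.4 CPM (counts per 1000000 counts of scaled library size; SD, n = 3) to 24.8 ± 1.14 CPM (log2 fold change -1.31 with an SE of 0.30, edgeR quasi-likelihood adjusted p = 0.023), and passed in 1 of the 6 fits that left out 1 library, the one without sgNeo replicate 2. It was at 68.3, 33.4 and 82.7 CPM in sgNeo and 23.5, 25.6 and 25.3 CPM in sgLkb1, so sgNeo replicate 2 lay nearer to the mutant libraries than to the other controls. The 12 alveolar type 2 markers, which define the cell type from which these tumours commonly arise, summed to 156986 to 193273 CPM in sgNeo and to 15135 to 24436 CPM in sgLkb1, and all 12 were lower by the same test, in this fit and with each library left out. The highest was Sftpc, surfactant protein C, at 75931 ± 6733 CPM and 8691 ± 2660 CPM. Alveolar type 1 markers summed to 2972 to 3603 CPM and 1574 to 2299 CPM, and club and ciliated markers to 497 to 689 CPM and 254 to 682 CPM. Fibroblast markers summed to 40.8 to 139 CPM in sgNeo and to 202, 278 and 1411 CPM in sgLkb1 replicates 1 to 3. Endothelial markers summed to 30.5 to 51.8 CPM and 74.0 to 122 CPM. Mesothelial markers summed to 172 to 428 CPM and 828 to 1417 CPM, most of it from Msln, at 261 ± 143 CPM and 1033 ± 232 CPM. Leukocyte markers summed to 35.4 to 50.7 CPM and 36.0 to 72.6 CPM, and adipocyte markers to 0.53 to 5.54 CPM and 1.66 to 38.9 CPM. The adipocyte genes Adipoq, Lep and Retn were at 0 in all sgNeo libraries. The part of these markers in the values below was not tested.

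More of the 45 genes fell than rose in the Lkb1 mutant cells, and those that fell ran from Acly, at the first step of fatty acid synthesis, to Pcyt1a and Pcyt2, of the choline and ethanolamine branches of phospholipid synthesis. Summed over the 45 genes, the level was 16002, 14084 and 14286 CPM in sgNeo libraries 1 to 3 and 9684, 5339 and 7667 CPM in sgLkb1 libraries 1 to 3. The groups did not overlap, and their means were 14791 ± 1054 CPM and 7563 ± 2174 CPM (SD, n = 3). Scd1 alone made up 47.0 to 49.4% of the sum in sgNeo and 29.6 to 51.6% in sgLkb1. Without it the sums were 8173, 7123 and 7572 CPM against 4688, 3760 and 4327 CPM, again without overlap. In these bulk samples, fewer cells of a type and less RNA per cell cannot be told apart.

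Of the 45 genes, 16 fell and 2 rose at an edgeR adjusted p of 0.05 or less, and 27 did not pass. Over all 15978 genes tested, 8.6% were lower by this rule, 7.05% were higher and 15.7% were called in either direction. In simulated data the same fit called 0% of 1.5-fold, 30% of 2-fold and 94% of 4-fold changes. A gene that did not pass may therefore still differ. In that simulation 50 genes were changed at each fold, none of them of low mean level. Far fewer genes were changed there than were called in the real data, so these shares need not hold here. Scd2 and Agpat3, both 1.53-fold lower, were called. The median log2 fold change was -0.43 over the 45 genes and 0.02 over all genes tested, and 30 of the 45 values were negative. In 23 of the 45 genes every sgLkb1 library lay below every sgNeo library, where 20.3% of all genes tested did so, and in 4 every sgLkb1 library lay above, against 16.3% of all genes. With 1 library left out, 9 to 17 of the genes were lower and 1 to 3 higher; the lower count was 9 when sgNeo replicate 2 was left out, and 10 when either sgNeo replicate 1 or sgLkb1 replicate 2 was, and the higher count was 1 without sgNeo replicate 1 or sgLkb1 replicate 2 and 3 without sgLkb1 replicate 1. Acly, Acaca, Fasn, Fads1, Elovl1, Lpin1, Pcyt1a and Pcyt2 remained past the threshold in all 6 of those fits, as did Mboat1 in the upward direction.

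**Figure D1:**
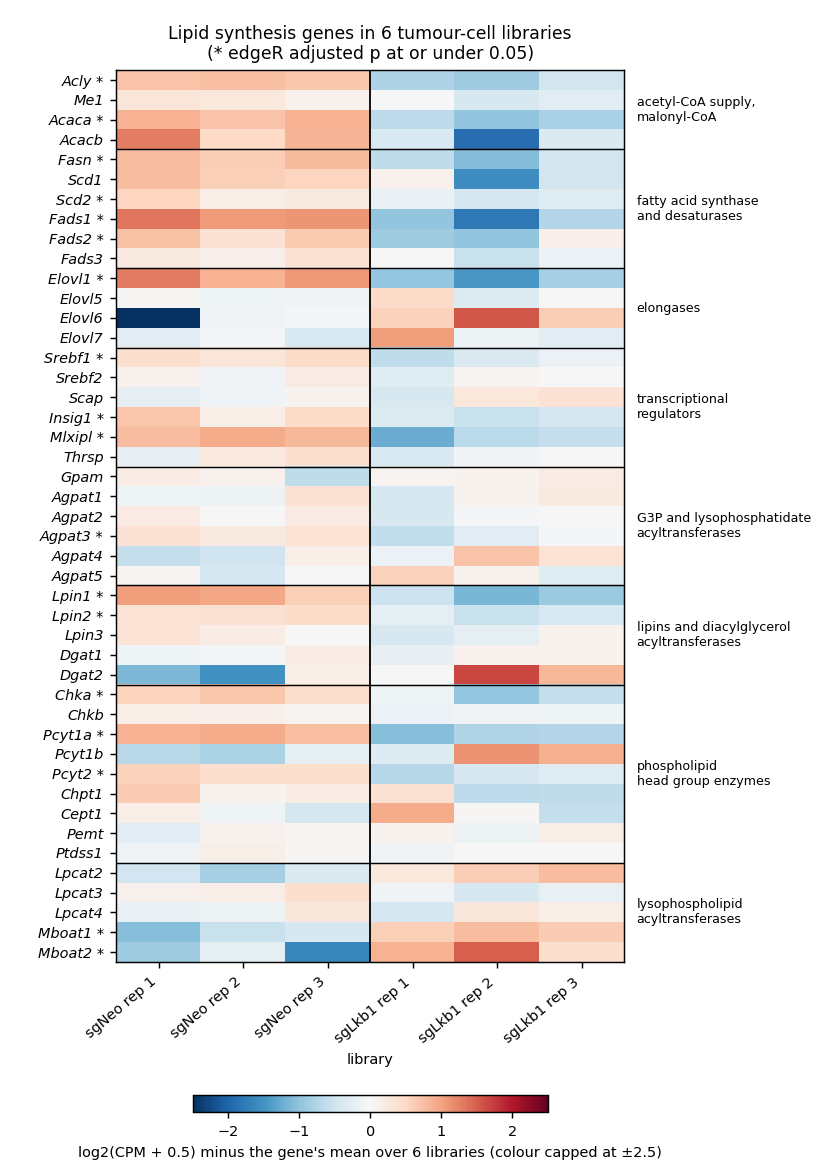
Each row is 1 of the 45 genes, grouped by role, and each column 1 of the 6 libraries. Colour is log2(CPM + 0.5) minus the gene's mean over the 6 libraries, and stars mark the 18 genes past the threshold. The sgLkb1 columns are below the gene's mean for most genes of the upper groups and above it for Mboat1 and Mboat2.

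The mutant libraries were spread more widely. The median coefficient of variation over the 45 genes was 12.2% in sgNeo and 21.8% in sgLkb1, and it was larger in sgLkb1 for 31 of 45 genes. Among the 16 genes that fell, sgLkb1 replicate 2 was the lowest of its group for 11 and sgLkb1 replicate 1 for 5. Over all 45 genes the order turned, with sgLkb1 replicate 1 lowest for 22, replicate 2 for 19 and replicate 3 for 4. The alveolar type 2 marker sums of sgLkb1 replicates 1 to 3 were 24436, 15135 and 24226 CPM. The library with the lowest marker sum was also the one with the lowest summed level of the 45 genes. Any link between these sums was not tested.

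Per kilobase of exon, Scd1 was the most abundant of the genes in both groups, at 1465 CPM per kb in sgNeo and 676 in sgLkb1, followed by Elovl1 at 792 and 179 CPM per kb. In sgNeo these were followed by Elovl5 at 123, Acly at 114 and Me1 at 106 CPM per kb, and in sgLkb1 by Elovl5 at 137, Me1 at 78.2 and Cept1 at 76.4 CPM per kb. Mboat1 moved from rank 19 to rank 7 among the 45 genes and Fads1 from rank 17 to rank 31. Acacb, Mlxipl, Thrsp, Pcyt1b, Lpcat2 and Mboat2 were below 1 CPM per kb in both groups.

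The promoters of 5 genes whose levels changed are printed here. Of these, 3 are of enzymes that supply acetyl-CoA, make fatty acids or lengthen them. Another 1 is of an enzyme of phosphatidylcholine synthesis and 1 of a gene that moved the other way. Each sequence is the 250 bases upstream of the RefSeq start in build GRCm38.p6, given on the gene's own strand. Capitals mark matches on either strand to the 5 motifs named after the sequences. The windows are chr11:120824548-120824797 on the minus strand for Fasn, fatty acid synthase, and chr11:100528001-100528250 on the minus strand for Acly, ATP citrate lyase. They are chr4:118427843-118428092 on the plus strand for Elovl1, an elongase of very long chains, chr16:32430671-32430920 on the plus strand for Pcyt1a, the CTP:phosphocholine transferase, and chr13:30136240-30136489 on the plus strand for Mboat1, a lysophospholipid acyltransferase.
Fasn: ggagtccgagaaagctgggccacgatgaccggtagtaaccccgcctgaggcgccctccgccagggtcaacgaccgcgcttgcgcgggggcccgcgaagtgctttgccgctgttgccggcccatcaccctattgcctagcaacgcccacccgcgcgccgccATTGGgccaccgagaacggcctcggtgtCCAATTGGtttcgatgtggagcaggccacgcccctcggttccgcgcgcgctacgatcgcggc
Acly: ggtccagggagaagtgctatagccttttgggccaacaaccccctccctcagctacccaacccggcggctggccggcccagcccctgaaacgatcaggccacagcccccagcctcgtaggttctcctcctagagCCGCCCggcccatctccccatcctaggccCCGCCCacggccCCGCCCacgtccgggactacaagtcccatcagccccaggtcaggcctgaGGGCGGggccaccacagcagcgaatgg
Elovl1: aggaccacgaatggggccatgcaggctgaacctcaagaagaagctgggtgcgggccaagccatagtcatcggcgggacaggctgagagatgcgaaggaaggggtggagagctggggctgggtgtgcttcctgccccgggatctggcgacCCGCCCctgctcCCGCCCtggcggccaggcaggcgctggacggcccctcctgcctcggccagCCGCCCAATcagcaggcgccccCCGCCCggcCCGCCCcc
Pcyt1a: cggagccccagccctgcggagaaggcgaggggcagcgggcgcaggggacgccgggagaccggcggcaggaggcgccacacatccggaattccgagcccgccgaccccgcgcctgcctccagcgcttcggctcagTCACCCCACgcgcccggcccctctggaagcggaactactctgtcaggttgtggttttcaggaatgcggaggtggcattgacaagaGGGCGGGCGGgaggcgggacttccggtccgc
Mboat1: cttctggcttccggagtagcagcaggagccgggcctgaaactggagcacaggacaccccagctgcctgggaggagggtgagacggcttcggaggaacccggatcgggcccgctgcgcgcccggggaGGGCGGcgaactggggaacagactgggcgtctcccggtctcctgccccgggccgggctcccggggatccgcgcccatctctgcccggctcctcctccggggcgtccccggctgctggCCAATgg

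Both strands were searched for the sterol regulatory element to which SREBP binds, TCACNCCAC, the E-box core CACGTG, the CCAAT box bound by NF-Y, the GC box GGGCGG bound by Sp1, and the cyclic AMP response element TGACGTCA bound by CREB and its partners. Overlapping matches were kept. Of the 45 genes, 37 matched the RefSeq table, with 54 windows; Scd1, Scd2, Fads1, Dgat1, Dgat2, Agpat5, Pcyt2 and Ptdss1 did not. The sterol regulatory element letters were in 3 of the 54 windows (5.56%) and in 1.05% of all 32851 windows. Those windows belong to 2 genes, Pcyt1a, with 2 overlapping windows that hold the same match, and Mlxipl. The share of 5.56% therefore counts that 1 match in both windows. Of the 13 matched genes that fell, only these 2 held the letters. In the printed Pcyt1a window the match starts 116 bases upstream of the start. The Fasn window holds 3 CCAAT matches, starting 90, 62 and 59 bases upstream, and the last 2 overlap. The Elovl1 window holds a CCAAT match and 5 GC boxes, and the CCAAT match overlaps 1 of them. CCAAT letters were in 48.1% of the 54 windows and in 33.8% of all windows, GC box letters in 59.3% and 32.7%, and E-box letters in 9.26% and 6.02%. The cyclic AMP response element was in 0 of the 54 windows and in 1.55% of all windows. Per gene, 26 of the 37 matched genes had a GC box and 24 a CCAAT box, and of the 13 among them that fell, 9 and 7 did. The Mboat1 window holds a GC box 124 bases and a CCAAT match 7 bases upstream. These matches describe letters only, since binding was not measured.

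Of the 4 enzymes that supply acetyl-CoA, malonyl-CoA and NADPH, Acly and Acaca fell, against 8.6% of all genes tested. Acly, at chr11:100476353-100528000, makes cytosolic acetyl-CoA from citrate and was at 606, 617 and 583 CPM in sgNeo and 213, 198 and 266 CPM in sgLkb1. It fell by 1.42 on the log2 scale (SE 0.17, edgeR adjusted p = 0.0018), with every mutant library below every control. Acaca, at chr11:84129672-84401651, encodes the cytosolic acetyl-CoA carboxylase and was at 52.8, 47.3 and 52.4 CPM against 18.1, 14.1 and 16.0 CPM. It was 3.17-fold lower (log2 fold change -1.66 with an SE of 0.16, edgeR adjusted p = 0.00083), again without overlap. Acacb, the carboxylase of the mitochondrial surface, was at 7.66, 4.21 and 5.58 CPM and at 2.08, 0.39 and 2.12 CPM. Its log2 fold change of -1.92 had an SE of 0.61 and did not pass (edgeR adjusted p = 0.069). The value of sgLkb1 replicate 2 lay far below those of the other mutant libraries, and the groups did not overlap. Me1, malic enzyme, which supplies NADPH, was at 406 ± 28.3 CPM and 301 ± 43.8 CPM (log2 fold change -0.43, edgeR adjusted p = 0.12). All 4 genes lay below the controls without overlap, where 20.3% of all genes tested did so.

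Fatty acid synthase and the desaturases had the highest share of calls, with 4 of 6 lower and a median log2 fold change of -1.11. Of all genes tested, 8.6% were lower. With 1 library left out the count was 2 to 4; it was 2 without any 1 of the sgNeo libraries and without sgLkb1 replicate 2. All 6 genes had every sgLkb1 library below every sgNeo library, where 20.3% of all genes tested did so. Fasn was at 891, 799 and 897 CPM in sgNeo and at 335, 247 and 376 CPM in sgLkb1. It was 2.70-fold lower (log2 fold change -1.43 with an SE of 0.20, edgeR adjusted p = 0.0032).

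The desaturases place double bonds in acyl chains. Fads1, the delta-5 desaturase of polyunsaturated fatty acids, was at 131, 108 and 110 CPM in sgNeo and 25.6, 14.6 and 30.6 CPM in sgLkb1. It had the greatest fall among the 45 genes, 4.94-fold (log2 fold change -2.30 with an SE of 0.27, edgeR adjusted p = 0.0016). Fads2, the delta-6 desaturase, lies 81141 bases from Fads1 on chromosome 19, on the opposite strand. It was at 48.9, 37.5 and 46.2 CPM against 15.4, 14.5 and 31.6 CPM and was 2.16-fold lower (edgeR adjusted p = 0.045), with sgLkb1 replicate 3 between the other mutant libraries and the controls. Scd1, the stearoyl-CoA desaturase that makes oleate, was at 7829, 6961 and 6714 CPM in sgNeo and at 4996, 1579 and 3340 CPM in sgLkb1.

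The 3 mutant libraries thus spanned a wide range for Scd1 while all lying below the controls, and its log2 fold change of -1.12 (SE 0.38) did not pass (edgeR adjusted p = 0.085). Without sgLkb1 replicate 1, the highest of the 3, it passed at an edgeR adjusted p of 0.028. Scd2, a second isoform, was at 594, 462 and 478 CPM against 365, 303 and 334 CPM and was 1.53-fold lower (edgeR adjusted p = 0.047). Scd1 and Scd2 are closely similar paralogs whose reads the counting could divide, so the value of each is uncertain. Fads3, a desaturase-like enzyme that acts on sphingoid bases, was at 140 ± 11.5 CPM and 102 ± 18.7 CPM and missed the threshold (edgeR adjusted p = 0.12). The call of Scd2 was lost in 5 of the 6 fits that left out 1 library, all but the one without sgLkb1 replicate 1 (edgeR adjusted p up to 0.18), and that of Fads2 in 5, all but the one without sgLkb1 replicate 3 (up to 0.15).

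**Figure D2:**
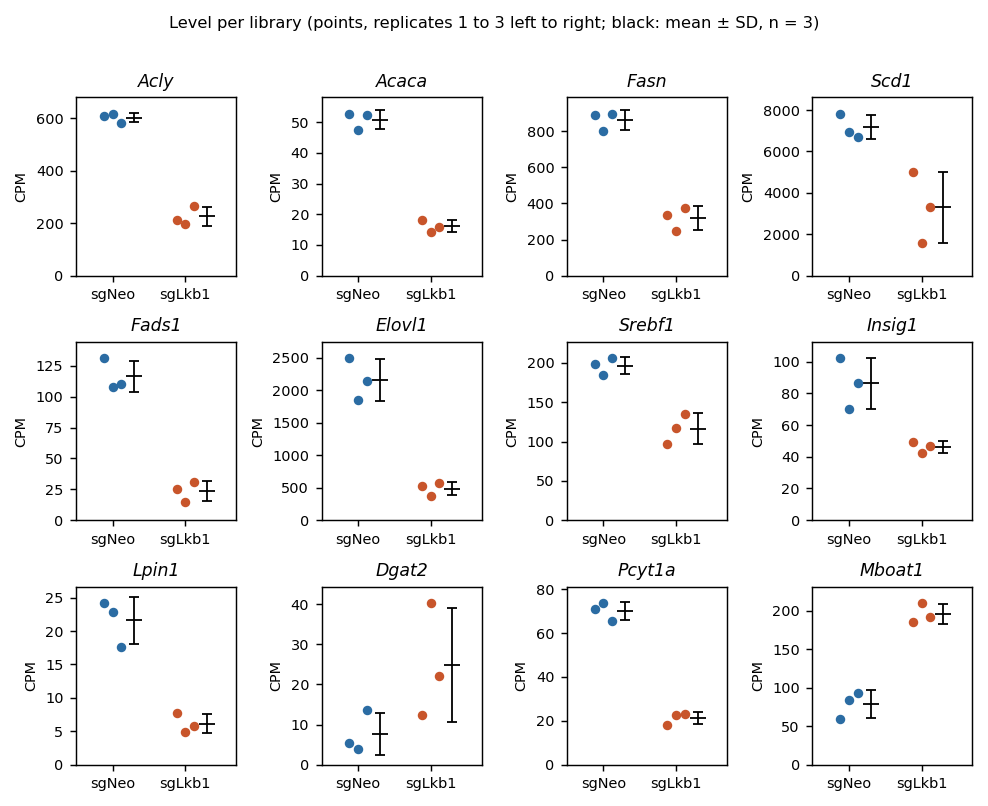
CPM of 12 of the genes in each library, with sgNeo and sgLkb1 on the horizontal axis, replicates 1 to 3 from left to right, and the mean ± SD (n = 3) in black. Every vertical axis starts at 0. The 3 sgLkb1 points lie below the 3 sgNeo points in 10 panels and above them for Mboat1, and the groups overlap for Dgat2.

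Of the 4 elongases, 1 fell, against 8.6% of all genes tested. Elovl1, at chr4:118428093-118432953, was at 2491, 1850 and 2137 CPM in sgNeo and 519, 368 and 573 CPM in sgLkb1. It was 4.44-fold lower (log2 fold change -2.15 with an SE of 0.23, edgeR adjusted p = 0.0012), and its lowest control library lay at more than the sum of any 2 mutant ones. Elovl5, which elongates polyunsaturated chains, was at 433 ± 20.9 CPM and 481 ± 134 CPM (log2 fold change 0.15, edgeR adjusted p = 0.68). Elovl6, which elongates palmitate to stearate, was at 0.36, 4.45 and 4.54 CPM in sgNeo and 7.34, 14.9 and 7.55 CPM in sgLkb1. All mutant libraries lay above all controls, but with an SE of 0.75 on a log2 fold change of 1.67 it did not pass (edgeR adjusted p = 0.18). Elovl7, an elongase of saturated long chains, was at 85.3 ± 10.4 CPM and 126 ± 68.1 CPM (edgeR adjusted p = 0.30); sgLkb1 replicate 1, at 205 CPM, stood apart from the other 5 libraries.

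Among the regulators, 3 of 6 fell, against 8.6% of all genes tested. Srebf1, at chr11:60199089-60222581, encodes SREBP-1 and was at 199, 185 and 206 CPM in sgNeo and at 96.4, 117 and 135 CPM in sgLkb1. It was 1.69-fold lower (log2 fold change -0.76 with an SE of 0.17, edgeR adjusted p = 0.020), without overlap. Insig1, which holds SREBP in the endoplasmic reticulum and is itself an SREBP target, was at 102, 70.4 and 86.3 CPM against 49.6, 42.3 and 46.9 CPM and was 1.87-fold lower (edgeR adjusted p = 0.012). Mlxipl, the carbohydrate-responsive factor ChREBP, was low in both groups, at 3.69, 4.21 and 3.82 CPM and at 0.54, 1.05 and 1.15 CPM. It was 4.28-fold lower (log2 fold change -2.10 with an SE of 0.43, edgeR adjusted p = 0.015).

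The paralog Srebf2, whose product mainly drives sterol synthesis, was at 180 ± 18.3 CPM and 162 ± 21.9 CPM and did not pass (log2 fold change -0.15, edgeR adjusted p = 0.60). Scap, the escort protein of SREBP, was at 40.6 ± 4.20 CPM and 45.9 ± 12.1 CPM (edgeR adjusted p = 0.63). Thrsp, a lipogenic nuclear protein, was at 0.20 to 0.72 CPM over the 6 libraries (edgeR adjusted p = 0.53). With 1 library left out, 1 to 3 regulators were lower; it was 1 when leaving out sgNeo replicate 1, sgNeo replicate 2 or sgLkb1 replicate 2. Srebf1 was not past the threshold in 4 of those fits, without any 1 sgNeo library or without sgLkb1 replicate 2 (edgeR adjusted p up to 0.080), Insig1 in 2, without sgNeo replicate 1 or sgLkb1 replicate 2 (up to 0.053), and Mlxipl in 1, without sgNeo replicate 2 (0.065).

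The enzymes that put the first and second acyl chains on glycerol phosphate mostly did not pass. Of these 6, 1 was lower, against 8.6% of all genes tested. Agpat3 was at 108, 97.3 and 106 CPM in sgNeo and 54.5, 68.3 and 80.4 CPM in sgLkb1 and was 1.53-fold lower (log2 fold change -0.61 with an SE of 0.17, edgeR adjusted p = 0.048). That call was lost in 5 of the 6 fits with 1 library left out, all but the one without sgLkb1 replicate 3 (edgeR adjusted p up to 0.16). Agpat2, the isoform needed for fat storage in adipose tissue, was at 90.2 ± 6.94 CPM and 74.1 ± 11.0 CPM, without overlap but not past the threshold (edgeR adjusted p = 0.28). Gpam, the mitochondrial glycerol-3-phosphate acyltransferase, was at 13.4 ± 3.94 CPM and 15.2 ± 0.80 CPM, and Agpat1 was at 36.4 ± 7.35 CPM and 34.5 ± 7.64 CPM. Agpat4 and Agpat5 had log2 fold changes of 0.64 and 0.28, and the edgeR adjusted p of these last 4 genes ranged from 0.21 to 0.85.

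Lipins, which make diacylglycerol from phosphatidate, fell in 2 of 3 cases, against 8.6% of all genes tested. Lpin1, at chr12:16535669-16610966, was at 24.2, 22.9 and 17.6 CPM in sgNeo and 7.76, 4.96 and 5.80 CPM in sgLkb1. It was 3.49-fold lower (log2 fold change -1.81 with an SE of 0.25, edgeR adjusted p = 0.0030). Lpin2 was at 168, 172 and 183 CPM against 114, 89.7 and 102 CPM and was 1.71-fold lower (edgeR adjusted p = 0.012). Neither gene's groups overlapped; Lpin2 was not past the threshold without sgNeo replicate 2 or sgLkb1 replicate 2 (edgeR adjusted p up to 0.057). Lpin3 was at 19.2 ± 2.51 CPM and 15.0 ± 2.65 CPM (edgeR adjusted p = 0.29).

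Triglyceride synthesis ends with the diacylglycerol acyltransferases, and neither passed. Dgat1 was at 34.5 ± 4.06 CPM and 34.1 ± 4.12 CPM, with a log2 fold change of -0.01 (SE 0.17) whose sign changed with the scaling. Dgat2, the isoform tied to newly made fatty acids, was at 5.33, 3.97 and 13.5 CPM in sgNeo and 12.3, 40.3 and 22.1 CPM in sgLkb1. Its mean was 3.27-fold higher, but sgNeo replicate 3 lay above sgLkb1 replicate 1 and the difference did not pass (log2 fold change 1.71 with an SE of 0.55, edgeR adjusted p = 0.073). It passed without either of those libraries. The 6 adipocyte markers summed to 5.54, 0.53 and 1.75 CPM in the sgNeo libraries and to 1.66, 8.50 and 38.9 CPM in the sgLkb1 libraries, and their part in the Dgat2 values was not tested.

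**Figure D3:**
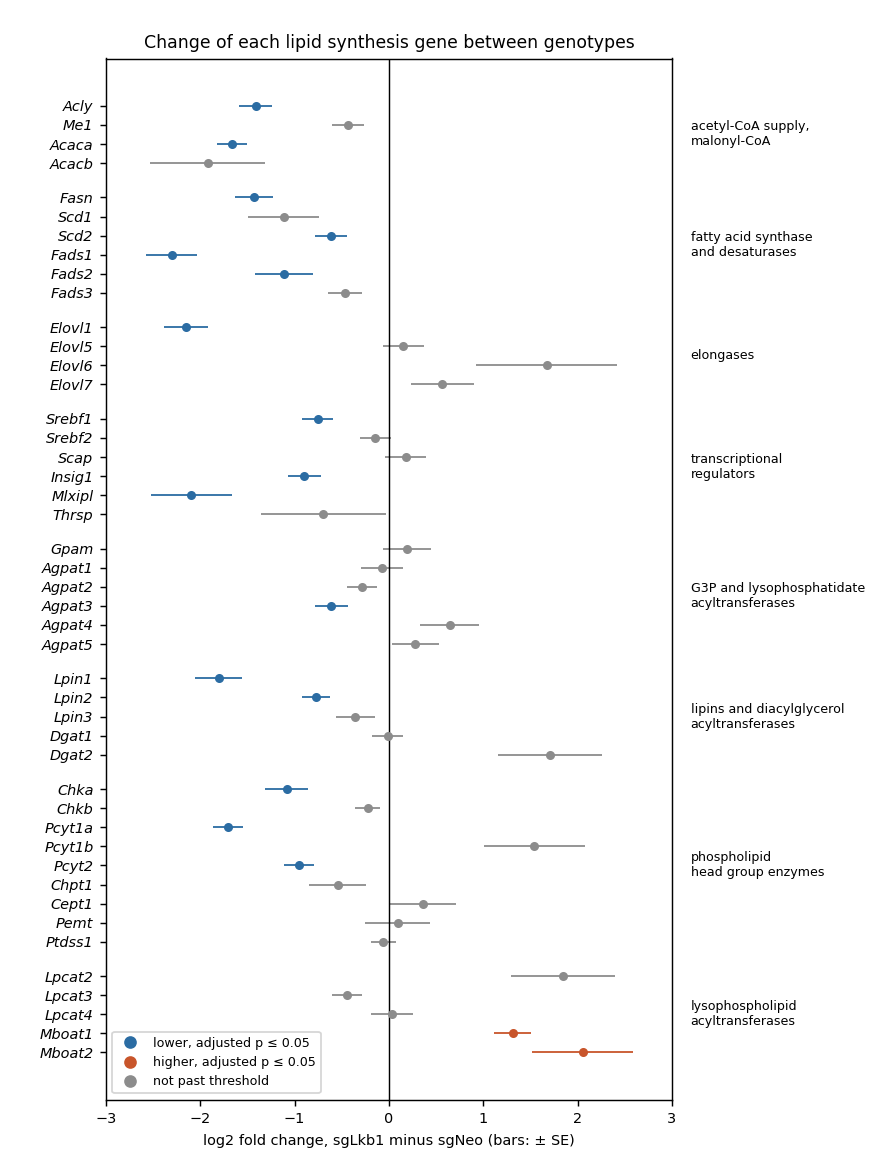
Log2 fold change of each of the 45 genes, sgLkb1 minus sgNeo, with bars of 1 SE and genes grouped by role. Blue points are the 16 genes that fell, red points the 2 that rose and grey points the 27 that did not pass. Values run from -2.30 for Fads1 to 2.05 for Mboat2.

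The head group enzymes join choline or ethanolamine to diacylglycerol. Pcyt1a, at chr16:32430921-32475070, is the rate-limiting enzyme of phosphatidylcholine synthesis and was at 71.1, 73.8 and 65.6 CPM in sgNeo and 18.3, 22.8 and 23.2 CPM in sgLkb1. It had the lowest p of the 45 genes and was 3.27-fold lower (log2 fold change -1.71 with an SE of 0.16, edgeR adjusted p = 0.00076). Pcyt2, its counterpart for phosphatidylethanolamine, was at 134, 121 and 122 CPM against 54.3, 67.1 and 73.3 CPM and was 1.94-fold lower (edgeR adjusted p = 0.0067). Chka, choline kinase alpha, was at 265, 291 and 242 CPM against 166, 92.0 and 118 CPM and was 2.12-fold lower (edgeR adjusted p = 0.016). In all 3 genes every mutant library was below every control library. Chka was not past the threshold when leaving out sgNeo replicate 1, sgNeo replicate 2 or sgLkb1 replicate 3 (edgeR adjusted p up to 0.073).

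The other 6 of the 9 head group enzymes did not pass. Of all genes tested, 8.6% were lower. Chkb, the second choline kinase, lay in a narrow range of 40.2 to 42.4 CPM in sgNeo and 34.6 to 36.2 CPM in sgLkb1, without overlap (log2 fold change -0.22 with an SE of 0.13, edgeR adjusted p = 0.30). Pcyt1b, the minor isoform of Pcyt1a, was at 1.04, 0.93 and 1.63 CPM and at 1.49, 4.93 and 4.10 CPM (log2 fold change 1.54 with an SE of 0.54, edgeR adjusted p = 0.092), so only sgLkb1 replicate 1 lay within the control range. Chpt1 and Cept1, which carry out the last step, were at 78.2 ± 16.8 CPM and 53.7 ± 23.9 CPM and at 186 ± 38.9 CPM and 238 ± 127 CPM. Pemt, which methylates phosphatidylethanolamine, was at 2.78 ± 0.44 CPM and 2.97 ± 0.36 CPM. Ptdss1, a phosphatidylserine synthase, was at 76.9 ± 6.34 CPM and 73.8 ± 2.99 CPM, with a log2 fold change of -0.06 and an SE of 0.14.

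Lysophospholipid acyltransferases, which reattach acyl chains to phospholipids, were the one role with genes that rose, 2 of 5, against 7.05% of all genes tested. Mboat1, at chr13:30136489-30246717, was at 59.0, 84.1 and 93.5 CPM in sgNeo and 186, 210 and 192 CPM in sgLkb1. It was 2.49-fold higher (log2 fold change 1.31 with an SE of 0.20, edgeR adjusted p = 0.0042), and its 3 mutant values were closer together than its 3 control values. Mboat2 was at 1.60, 2.87 and 0.76 CPM against 6.63, 10.5 and 4.68 CPM and was 4.15-fold higher (log2 fold change 2.05 with an SE of 0.53, edgeR adjusted p = 0.036). Its groups did not overlap, and the call was lost when leaving out sgNeo replicate 1 or 3, or sgLkb1 replicate 1 or 2 (edgeR adjusted p up to 0.11).

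Lpcat2, an isoform known from inflammatory cells, was at 0.44, 0.24 and 0.52 CPM and at 1.08, 1.52 and 1.75 CPM; it lay higher without overlap and did not pass (log2 fold change 1.84 with an SE of 0.55, edgeR adjusted p = 0.058). For scale, 3 counts are 0.12 CPM in each sgNeo library and 0.073 to 0.086 CPM in the sgLkb1 group. Lpcat3, which places polyunsaturated chains, was at 142 ± 15.6 CPM and 104 ± 11.1 CPM without overlap (log2 fold change -0.45, edgeR adjusted p = 0.095). Lpcat4 was at 77.4 ± 14.4 CPM and 79.1 ± 18.9 CPM (log2 fold change 0.03). Of 9 leukocyte markers tested, 1 was lower, Cd79a, named after its values were seen, and 0 were higher past the threshold, while 2 lower and 2 higher had an unadjusted p under 0.05, as had 15.9% and 14.4% of all genes tested; the part of leukocytes in the Lpcat2 values was not tested.

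Ratios of paired genes within a library do not depend on the scaling between libraries, and 9 pairs were compared. With 3 libraries against 3 the smallest two-sided exact permutation p is 0.1, so none can pass. Srebf1 to Srebf2 had log2 ratios of 0.12, 0.21 and 0.07 in sgNeo and -0.51, -0.60 and -0.35 in sgLkb1, a difference of -0.62 (exact permutation p = 0.1, adjusted over the pairs 0.13). Pcyt1a to Pcyt2 had log2 ratios of -0.92, -0.71 and -0.89 and of -1.57, -1.56 and -1.66, a difference of -0.75 with the same p. In both pairs the first gene was lower relative to the second in each mutant library than in any control library.

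The groups were also apart, with the same exact permutation p, for Fads1 to Fads2 (difference of log2 ratios -1.17), Lpin1 to Lpin2 (-1.03), Chka to Chkb (-0.90), Dgat1 to Dgat2 (-1.76) and Elovl1 to Elovl6 (-4.41). The last of these was -3.11 without sgNeo replicate 1, in which Elovl6 was at 0.36 CPM. Except for Dgat1, the first gene of each pair that was apart was itself lower past the threshold. The pairs were chosen with earlier results of these data known, and the share of other gene pairs that lie apart was not counted. Scd1 to Scd2 overlapped between the groups (difference -0.66, exact permutation p = 0.2), as did Acaca to Acacb (difference 0.55, exact permutation p = 0.7), which became -0.16 without sgLkb1 replicate 2.

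**Figure D4:**
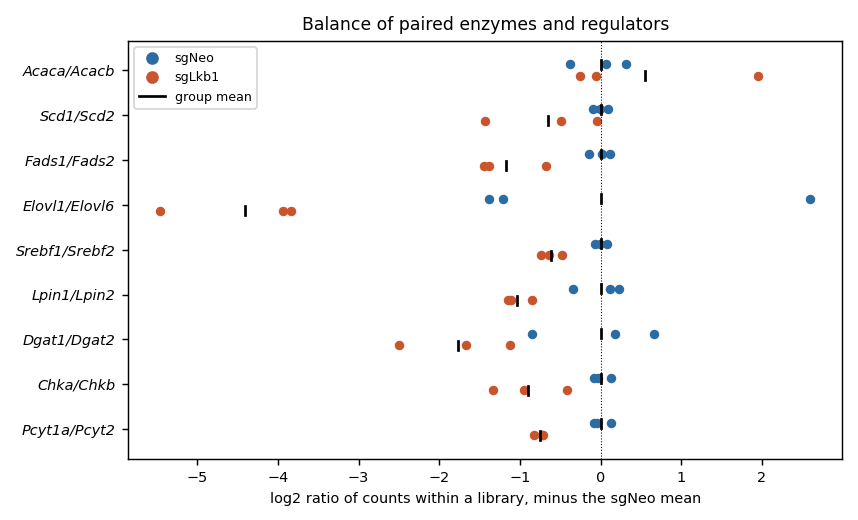
Log2 ratio of the counts of 2 genes within each library, minus the sgNeo mean of that pair, for 9 pairs. Points are the 3 sgNeo and 3 sgLkb1 libraries and vertical marks are group means. The groups are apart in 7 pairs and overlap for Acaca/Acacb and Scd1/Scd2.

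Neighbouring routes of lipid metabolism were counted by the same fit. The sterol branch, 22 enzymes and receptors that SREBP-2 drives, had 0 genes past the threshold in the edgeR test and a median log2 fold change of 0.06. At an unadjusted p under 0.05, 1 of these was lower and 5 were higher, against the same 15.9% and 14.4% of all genes; DESeq2 called 2 higher and limma-voom 0. Hmgcs1, an early enzyme of cholesterol synthesis, had a log2 fold change of -0.17 (edgeR adjusted p = 0.58). Msmo1, Hsd17b7 and Pmvk had the lowest p of the branch, with log2 fold changes of 0.62, 0.75 and 0.45 and edgeR adjusted p of 0.081, 0.088 and 0.093. The difference between this branch and the 45 genes was not tested.

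Of 39 other lipid synthesis genes, 33 were tested, 6 were lower and 3 higher, with a median log2 fold change of -0.09. The shares were 18.2% and 9.09%, against 8.6% and 7.05% of all genes tested. The lower count was 2 to 6 with 1 library left out, and the higher count 0 to 3; the lower count was 2 without sgNeo replicate 1 or sgLkb1 replicate 2 and 3 without sgNeo replicate 3, and the higher count was 0 without sgNeo replicate 1 or sgNeo replicate 2 and 1 without sgLkb1 replicate 2. Lpcat1, which remodels surfactant phosphatidylcholine and is also on the alveolar type 2 marker list, was at 1387, 1298 and 1284 CPM in sgNeo and 207, 127 and 204 CPM in sgLkb1 (log2 fold change -2.89 with an SE of 0.23, edgeR adjusted p = 0.00054). Pgs1, of cardiolipin synthesis, and Hacd3, a dehydratase of chain elongation, fell by 0.90 and 0.80 on the log2 scale (edgeR adjusted p = 0.011 and 0.013). Slc25a1, the mitochondrial citrate carrier upstream of Acly, and Acss2, which makes acetyl-CoA from acetate, had log2 fold changes of -0.27 and -0.09 and did not pass (edgeR adjusted p = 0.23 and 0.85).

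Acyl-CoA synthetases and uptake genes had 2 lower and 1 higher of 13 tested out of 16. These are 15.4% and 7.69%, against 8.6% and 7.05% of all genes tested. Acsl4, which activates arachidonate, fell from 670 ± 112 CPM to 377 ± 58.6 CPM (log2 fold change -0.83, edgeR adjusted p = 0.026), and the fatty acid binding protein Fabp5 from 279 ± 36.6 CPM to 118 ± 52.8 CPM (log2 fold change -1.24, edgeR adjusted p = 0.033). Acsl3 rose from 42.5 ± 0.73 CPM to 70.6 ± 8.75 CPM (log2 fold change 0.73, edgeR adjusted p = 0.014), while Acsl1 had a log2 fold change of 0.05 and did not pass. The lower count was 4 without sgLkb1 replicate 1, 0 when leaving out sgNeo replicate 1, sgNeo replicate 2 or sgLkb1 replicate 3, and 1 in the other fits; the higher count was 0 without sgNeo replicate 1 or sgNeo replicate 2 and 2 without sgLkb1 replicate 1.

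Lipid droplet and triglyceride breakdown genes had 5 lower and 3 higher of 16 tested out of 18, with a median log2 fold change of -0.47. The shares were 31.25% and 18.75%, against 8.6% and 7.05% of all genes tested. Pnpla2, the main triglyceride lipase, fell from 251 ± 35.2 CPM to 122 ± 18.4 CPM (log2 fold change -1.04, edgeR adjusted p = 0.0079), and Fitm2, which helps droplets form, from 58.5 ± 4.48 CPM to 30.0 ± 2.86 CPM (log2 fold change -0.96, edgeR adjusted p = 0.0049). Hilpda, an inhibitor of that lipase, rose from 50.7 ± 10.7 CPM to 120 ± 20.6 CPM (log2 fold change 1.24, edgeR adjusted p = 0.0063). The droplet coat genes Plin2 and Plin3 had log2 fold changes of 0.35 and -0.41 and did not pass (edgeR adjusted p = 0.31 and 0.095). Named after their values were seen, Abhd5, Bscl2 and Fitm1 were the other lower genes, and Cidea, at 1.80 ± 1.48 CPM and 9.57 ± 1.06 CPM, and Pnpla3, at 0.054 ± 0.047 CPM, under 3 counts in each sgNeo library, and 1.01 ± 0.92 CPM, the other higher ones. The log2 fold change of Cidea was 2.41, and 3.33 without sgNeo replicate 3; of the 6 fits with 1 library left out, Fitm1 passed in 0 and Pnpla3 in 1. With 1 library left out, 2 to 4 were lower and 1 to 4 higher; the lower count was 2 without any 1 of the sgNeo libraries or sgLkb1 replicate 2 and 3 without sgLkb1 replicate 3, and the higher count was 1 without sgNeo replicate 1 or sgNeo replicate 2.

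**Figure D5:**
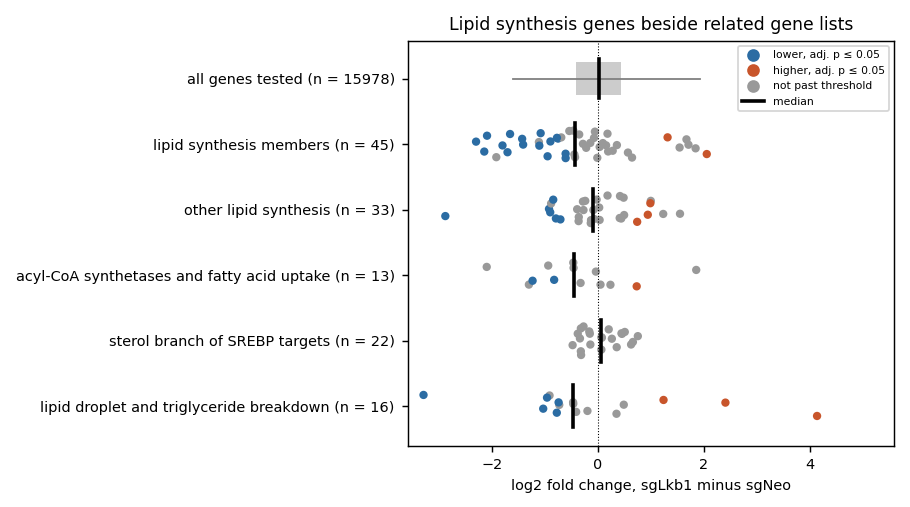
Log2 fold change, sgLkb1 minus sgNeo, of the 45 lipid synthesis genes and of 4 neighbouring gene lists, 1 point per gene tested, with list medians as black bars. The top row shows all 15978 genes tested as their median, quartiles (box) and 5th to 95th percentiles (line). The 45 genes have a median of -0.43, the sterol branch of 0.06 with 0 coloured points, and all genes of 0.02.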

How the data were processed

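Bulk RNA-seq counts of 6 libraries were used, 3 sgNeo and 3 sgLkb1, grouped by the labels' titles. The authors deposited expected counts per gene, estimated from aligned reads with tools among which FastQC, STAR, RSEM and DESeq2 are named for build GRCm38, per the submitters' processing notes. Versions and the strand setting: not given in the sources used here. Gene IDs matched GENCODE M21 with version for 98.1% of the table, and coordinates and exon lengths come from that release. RSEM divides reads that match several genes, so levels of paralogs are uncertain. Reads shared with an antisense gene could not be separated, and 20 of the 45 genes share exon bases with another gene. Among those that passed the test these are Scd2, Elovl1, Srebf1, Mlxipl, Agpat3, Chka, Pcyt1a and Mboat2.

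Counts were rounded to whole numbers, filtered with filterByExpr and scaled by TMM (edgeR 4.0.16, R 4.3.3), and CPM values use the scaled library sizes. The test was edgeR's two-sided quasi-likelihood test (glmQLFit, glmQLFTest) on genotype alone, with Benjamini-Hochberg adjustment over all 15978 genes tested at 0.05. Each log2 fold change is sgLkb1 minus sgNeo; its SE is its absolute value divided by the square root of F. Ratios of genes used counts plus 0.5 and exact permutation tests over libraries. The edgeR fit at its main settings was tested on simulated data, and the alternative settings and the ratio tests were not. Libraries of 1 group differed by more than sampling noise. Floors of 3 counts cover counting error only.

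The 45 genes, the lists, the ratios and the rule for names were chosen with earlier results of these data known. The rule names all 45 genes, and from each other list the first 2 genes measured and the 3 with the lowest p; 1 sterol branch gene it names is not reported here. From each marker list it takes the sum, the genes at 0 and the highest gene, printed here for alveolar type 2 and mesothelial cells. Alternatives were RLE and upper-quartile scaling, removal of the 10 most abundant genes, no filter, a filter at 1 CPM in 3 libraries, limma-voom (limma 3.58.1), DESeq2 1.42.0, a replicate block, a pseudocount of 5 for ratios, and leaving out each library.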

Additional observations from a re-analysis of the deposited data

How the results depend on the processing

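Of the 16 genes that fell, 13 stayed past the threshold in every other setting and 8 with every library left out in turn; both genes that rose stayed in every other setting. Scd2, Fads2 and Agpat3 lost their calls with RLE scaling and with the 10 most abundant genes removed. With upper-quartile scaling 2 of them lost the call, as did 2 without a filter. The count of genes higher was 4 without a filter and 5 with DESeq2, and 1 to 3 with a library left out, against 9 to 17 lower. The median log2 fold change of the 45 genes was -0.40 with RLE scaling, -0.40 without a filter, -0.39 with the CPM filter and -0.40 with DESeq2, and -0.43 to -0.30 with a library left out. Over all genes, 1917 were higher without a filter and 1819 with DESeq2, and leaving out a library gave 447 to 1368 higher and 682 to 1412 lower. Stk11 ranged from -1.61 to -1.04.

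The log2 fold change of Dgat1 turned to 0.015 with RLE scaling, 0.0023 with upper-quartile scaling, 0.022 without a filter and 0.015 with DESeq2, and ranged from -0.082 to 0.092 with a library left out. Signs also turned with a library left out for Elovl5 (-0.068 to 0.35), Gpam (-0.040 to 0.34), Agpat1 (-0.23 to 0.10), Cept1 (-0.15 to 0.64), Pemt (-0.039 to 0.22), Lpcat4 (-0.073 to 0.22), Acss2 (-0.26 to 0.083), Acsl1 (-0.078 to 0.16) and Hmgcs1 (-0.27 to 0.0083), and for the Acaca to Acacb ratio (-0.16 to 0.95). The causes were not tested.

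In the acyl-CoA and uptake list 3 genes were higher without a filter and 2 with DESeq2; a library left out gave 0 to 2 higher and 0 to 4 lower. The sterol branch had 3 higher without a filter, 2 with DESeq2, and 0 to 1 with a library left out. With a library left out, other lipid synthesis ranged from 0 to 3 higher and 2 to 6 lower, and lipid droplet genes from 1 to 4 higher and 2 to 4 lower.

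Same-numbered libraries had correlations of deviations of 0.14, -0.02 and 0.11, and differently numbered libraries of -0.17 to 0.089. These values do not settle whether replicate numbers pair the libraries. Over all genes, 1544 were lower and 1336 higher with a replicate block, against 1374 and 1127 without it. With the replicate block 19 of the 45 genes were lower and 2 higher, the acyl-CoA and uptake list had 2 higher and the sterol branch 3 higher.

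Some genes not past the threshold passed in other settings: Scd1, Dgat2 and Acacb without a filter and with DESeq2, Scd1 and Acacb with the replicate block, Acacb with limma-voom, and Lpcat2 with DESeq2 and the CPM filter. Not all are named, since 5 such genes passed with DESeq2, 4 without a filter and 3 with the replicate block. Without sgLkb1 replicate 1, Me1, Chpt1 and Pcyt1b also passed (edgeR adjusted p of 0.049, 0.016 and 0.025).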
